A study of Mus musculus with 11 samples.

Results

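CpG islands at gene promoters were examined in the pancreas of newborn C57BL/6N wild-type mice. An island counted as a promoter island when it lay on chromosomes 1 to 19 and overlapped by 1 bp or more a promoter of the authors' promoter table, where each promoter spans 1500 bp before the start of a gene and 500 bp after it. This held for 10640 of the 14841 islands in the table, which is 73.7% of the 14428 autosomal islands, and the rule used no methylation value. Their dams had been injected with amphetamine at 10 mg/kg on embryonic days 14.5, 15.5 and 16.5, or with saline. Whole pancreas was taken at P0 from 5 pups exposed to amphetamine (3 females, 2 males) and 6 saline controls (3 females, 3 males). The labels do not say which pups shared a litter, so the p-values measure the spread between these pups. Methylation was measured by reduced representation bisulfite sequencing, which reads CpG sites near MspI (CCGG) and TaqI (TCGA) cuts, and the DNA came from all cell types of the organ together. For each group the mean, SD, lowest and highest mouse and the mean coverage of an island (called reads here) are given. A level below is thus the authors' mean over mice with the authors' SD. The labels do not say whether a read over several CpGs was counted more than 1 time.

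A CpG island is a stretch rich in G, C and CpG sites, and most mammalian promoters of broadly used genes carry one. Such islands are normally free of methylation in every tissue, whether or not their gene is active. Known exceptions are germline genes, whose islands are methylated in body cells, and imprinted genes, whose islands can carry methylation on the copy inherited from a single parent.

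The islands on which the results turn are shown by stretches of at most 200 bases near the middle of the island (mm10, forward strand), taken outside the annotated untranslated regions of coding transcripts, with each CpG in capitals. Apart from Dazl and Igf2r they were ranked among islands with reads in all mice, at least 50 reads in each group and a gene symbol other than Gm or Rik names. The first 2 had the smallest p in each direction of treatment among those with an SD above 0 in both groups, the next is a germline island whose treatment groups did not overlap, then come an imprinted island, the highest control level and the highest coverage within that set.
Slc18a2: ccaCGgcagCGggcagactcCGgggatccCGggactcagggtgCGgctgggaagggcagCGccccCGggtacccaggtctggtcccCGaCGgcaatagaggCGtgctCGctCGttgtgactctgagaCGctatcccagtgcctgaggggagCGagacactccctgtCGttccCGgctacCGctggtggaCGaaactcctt
Kdm5b: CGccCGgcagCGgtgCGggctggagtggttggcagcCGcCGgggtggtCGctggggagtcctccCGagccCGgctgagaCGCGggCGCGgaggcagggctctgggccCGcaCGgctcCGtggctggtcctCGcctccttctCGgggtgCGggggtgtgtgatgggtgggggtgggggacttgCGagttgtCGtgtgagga
Dazl: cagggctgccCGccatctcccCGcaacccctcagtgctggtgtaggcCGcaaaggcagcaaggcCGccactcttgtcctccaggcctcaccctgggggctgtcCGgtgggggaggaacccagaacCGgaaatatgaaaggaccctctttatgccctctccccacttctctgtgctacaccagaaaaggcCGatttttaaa
Igf2r: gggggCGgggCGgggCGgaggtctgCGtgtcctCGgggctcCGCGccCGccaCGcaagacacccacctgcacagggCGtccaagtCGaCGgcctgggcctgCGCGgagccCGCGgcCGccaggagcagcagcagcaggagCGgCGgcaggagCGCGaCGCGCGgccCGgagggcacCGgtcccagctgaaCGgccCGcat
Tuba3a: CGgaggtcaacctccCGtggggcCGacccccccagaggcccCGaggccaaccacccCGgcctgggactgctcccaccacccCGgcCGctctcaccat
Gm26917/Yam1: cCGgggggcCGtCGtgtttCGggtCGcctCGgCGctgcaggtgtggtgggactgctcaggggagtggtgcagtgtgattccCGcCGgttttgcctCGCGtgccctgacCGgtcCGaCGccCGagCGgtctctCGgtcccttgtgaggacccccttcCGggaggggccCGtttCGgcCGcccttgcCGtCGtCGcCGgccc
The Slc18a2 stretch (chr19:59261060-59261259) holds 18 CpGs and 4 MspI sites, and its middle lies 282 bp downstream of the gene's start, in an exon of a Slc18a2 transcript. The Kdm5b stretch (chr1:134560813-134561012) holds 21 CpGs and 3 MspI sites in the first part of the gene, outside any annotated exon. The Dazl stretch (chr17:50293138-50293337) holds 7 CpGs and 2 MspI sites, inside the gene and outside its exons. The Igf2r stretch (chr17:12769334-12769533) reaches into coding sequence and holds 28 CpGs, 2 MspI sites and 1 TaqI site. The Tuba3a stretch (chr6:125285874-125285970) holds 7 CpGs and 2 MspI sites, and part of it is coding. The Gm26917/Yam1 stretch (chr17:39844658-39844857) holds 25 CpGs and 5 MspI sites in an exon of Gm26917.

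Promoter islands were almost free of methylation in control mice. The median level over the 10640 islands was 1.87%, with quartiles at 1.17% and 2.83%, and 9642 islands (90.6%) were under 5%. A level of 0 was listed for 533 islands (5.01%), whose median coverage of 54.5 reads was far below the 304 reads over all promoter islands. At the other end, 152 islands lay between 25 and 75% and 169 (1.59%) above 50%. Of the 2911 autosomal islands inside genes but away from promoters 22.7% were above 50%, as were 6.27% of the 877 islands outside genes and promoters; no test was made of these differences. Those classes had lower coverage as well, with medians of 179 and 183 reads.

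**Figure D1:**
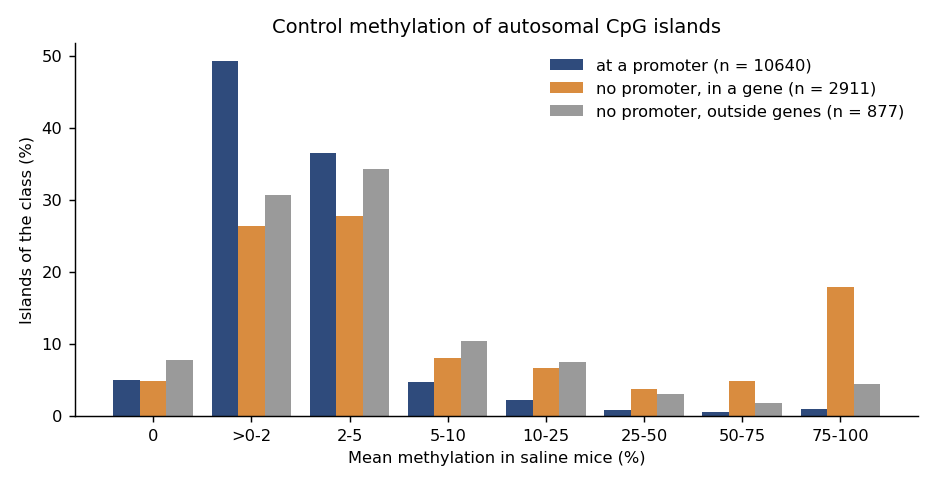
Share of islands (%, y axis) in each range of mean methylation in saline mice (%, x axis), for islands at a promoter, inside a gene without a promoter, and outside genes. The promoter islands are concentrated at or below 5%, and the range from 75 to 100% holds 0.996% of them against 17.8% of the islands inside genes.

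What kind of gene the promoter belonged to went with the level. Protein-coding promoters made up 9911 of the islands, with a median of 1.84%, and 77 of these (0.777%) were above 50%. Islands whose promoters belonged to pseudogenes and to no protein-coding gene numbered 190, with a median of 26.5% and quartiles from 3.70% to 71.7%. Of these 73 (38.4%) were above 50%, so pseudogenes held 43.2% of all methylated promoter islands. Pseudogene islands were short, at a median of 334 bp against 625 bp for protein-coding ones, and their coverage was 166 against 309 reads. Promoters of long non-coding RNAs were closer to the protein-coding ones, with a median of 2.11% over 366 islands and 11 above 50%.

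The start of a gene lay inside 8501 of the promoter islands (79.9%), and the middle of an island lay at a median of 138 bp downstream of the nearest start. Islands that held a start had a median level of 1.84% and 1.19% of them were above 50%. The corresponding share was 4.63% of the 518 islands wholly upstream of the start and 2.66% of the 1581 wholly downstream. Promoters on both strands shared 2055 islands, and of these 9 (0.438%) were above 50%, against 1.85% of the 8290 islands with a single promoter. Of the genes behind methylated islands, the body was methylated too: where the gene table gave a level, the median over the gene was 79.1% for 158 islands above 50% and 31.5% for 9576 islands under 5%. A gene's level includes its own island, so these values share reads.

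Promoter islands were longer and denser in CpG than the other autosomal islands, with medians of 615 against 413 bp, 68.8% against 67.2% GC and an observed over expected CpG ratio of 0.891 against 0.854. They also held more sites at which the assay can read them, with a median of 8 MspI sites against 4, and coverage rose with the number of these sites (Spearman's rho = 0.76 across the 10640 islands, which share libraries and are not independent). The letters GGGCGG, the GC box bound by Sp1-type factors, stood on either strand in 87.0% of promoter islands and in 67.8% of the other autosomal islands. Within promoter islands they stood in 88.5% of those under 5% methylation and in 43.2% of those above 50%. Islands above 50% were also shorter, at a median of 301 against 633 bp. Per kb the GC box letters occurred 5.06 times in the islands under 5% and 2.29 times in those above 50%. CCAAT, searched on both strands, stood in 40.8% and 17.2% of these sets, and per kb it occurred 0.914 and 0.665 times. The letters TGACG stood in 54.8% and 39.1% of them, but per kb they went the other way, at 1.29 and 1.53. The share of islands with a match also depends on island length. Matches of letters are a description and do not show that a factor was bound. The CpG ratio itself differed little, at 0.893 and 0.872.

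The spread between control mice followed the level. The median SD was 1.73 percentage points, and 9566 islands (89.9%) had an SD under 5. In the range from 25 to 50% the median SD was 16.6 points, from 50 to 75% it was 15.9, and from 75 to 100% it fell back to 6.99. The spread went with coverage as well. Islands with 200 to 1000 reads had a median SD of 1.60 points and 61 of 6959 exceeded 10 points, whereas 107 of the 499 islands with 10 to 50 reads did. None of the 416 islands with 1000 reads or more had an SD above 10.

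**Figure D2:**
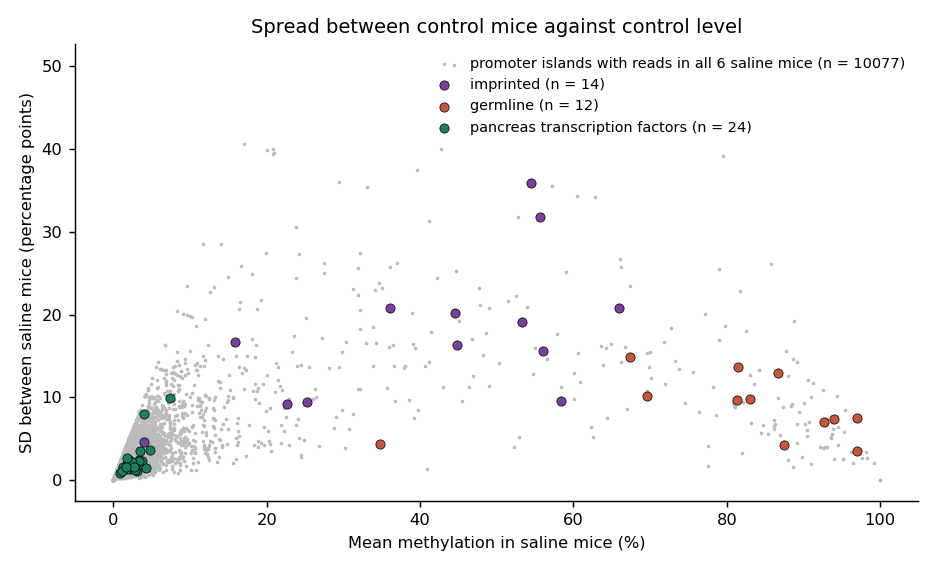
SD between the saline mice (percentage points, y axis) against their mean methylation (%, x axis) for each promoter island with reads in all 6, with 3 gene lists coloured. Pancreas transcription factors sit at the lower left, imprinted genes mostly in the middle with large SDs, and germline genes mostly at the right.

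Among lists of genes with a known role, the transcription factors of the pancreas had islands of low methylation. Of 33 factors 24 had a promoter island, at levels up to 7.39%, with a median of 2.63%, and 23 were under 5%. Pdx1, which specifies the pancreas, was at 2.38% ± 2.19 (SD, n = 6), with mice from 0 to 6.45%. Neurog3, which starts the endocrine lineage, was at 4.03% ± 7.97, and its mice ranged from 0 to 20.0%. Without the highest mouse its mean was 0.833%, and the lowest coverage among saline mice was 10 reads. Mafa, an activator of insulin in mature β cells, was at 2.81% ± 1.24 with a coverage of 1328 reads. The exception above 5% was Rfx6, an islet regulator, at 7.39% ± 9.90, with a highest mouse at 25% and a coverage of 102 reads. Without that mouse its mean was 3.86%, and the lowest coverage among saline mice was 14 reads.

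Genes used by every cell had low levels too. The 16 islands of 15 housekeeping genes had a median of 2.06% and a highest level of 4.46% at Tbp, the TATA-binding protein. The 8 islands of insulin secretion genes had a median of 1.91%; Abcc8, the sulphonylurea receptor of the β-cell potassium channel, was at 2.35% ± 2.64. The island listed at 0 in this group, at Kcnj11, which encodes the pore of that channel, rested on 9.67 reads and 4 mice. For genes that write, read or erase methylation the median over 9 islands was 1.53%, and the exception above 5% was Tdg, a glycosylase of the demethylation pathway, at 11.3% ± 9.61. Of the serotonin genes, 9 had 10 islands with a median of 2.28%. Among these Slc6a4, the serotonin transporter, carried a pair of islands at 2.03% ± 1.93 and 1.08% ± 2.22, and Rab3a, a vesicle GTPase, was highest at 12.3% ± 16.4.

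Germline genes stood at the opposite end. All 12 of their islands were at 34.8% or more in controls, 11 were above 50%, and the median was 84.8%. Rpl10l, a testis copy of a ribosomal protein gene, was at 97.0% ± 3.54, and Dpep3, a dipeptidase of the testis, at 96.9% ± 7.54. The synaptonemal complex genes Sycp1, Sycp2 and Sycp3 were at 87.5% ± 4.25, 81.5% ± 13.6 and 81.3% ± 9.71. Ddx4, the Vasa helicase of germ cells, was lower at 67.4% ± 14.9. The lowest was Dazl, a germ-cell RNA-binding protein, at 34.8% ± 4.34 over an island of 1107 bp, although its whole promoter was at 77.5% in the promoter table.

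Imprinted genes lay between. Their 15 islands had a median of 44.6%, a range from 2.46% to 65.9% and a median SD of 16.7 points. Igf2r, the receptor that clears insulin-like growth factor, was at 44.6% ± 20.2, with mice from 12.5% to 66.5%. Zrsr1, a retrogene expressed from the paternal copy, was at 44.8% ± 16.3 with 763 reads, and Peg3, a paternally expressed zinc finger gene, at 58.4% ± 9.49 with 53.0 reads. Inpp5f and Rasgrf1 stood apart from the others at 3.97% ± 4.55 and 2.46% ± 1.81. The median SD of the germline islands was 8.62 points; the difference between the lists was not tested.

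**Figure D3:**
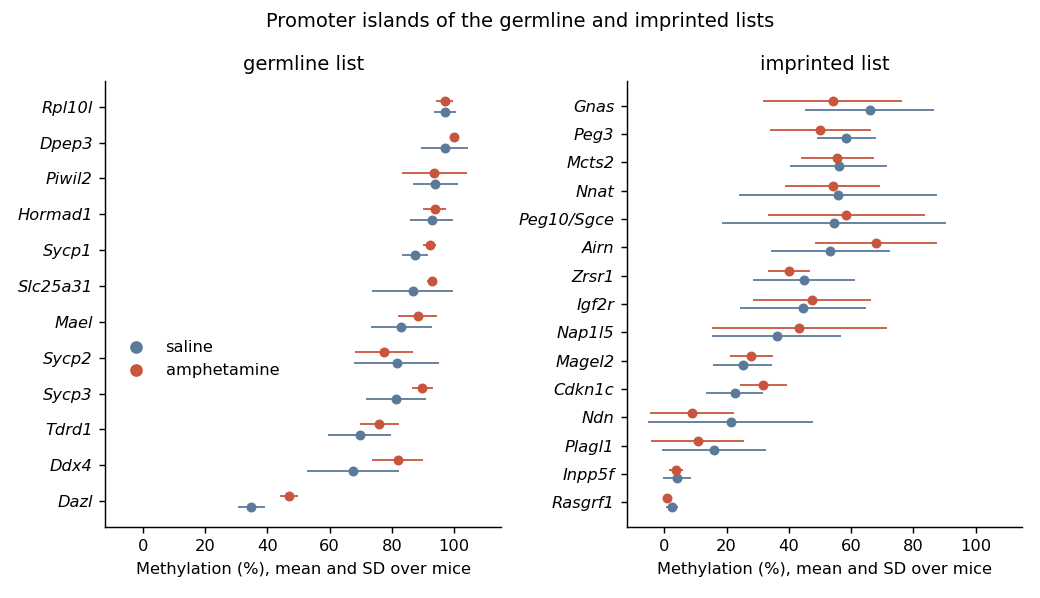
Methylation (%, x axis; mean and SD over mice, bars may run past 0 or 100) of each germline and imprinted promoter island in saline and amphetamine mice, ordered by saline level. Germline islands lie at the right apart from Dazl, whose groups are separated, and imprinted islands spread around the middle with overlapping groups.

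The highest control levels among named genes belonged largely to genes of the testis and to gene copies. Among islands with reads in all mice, at least 50 reads in each group and a symbol other than Gm or Rik names, the 8 highest were Tuba3a, a tubulin of the testis, at 98.2% ± 3.37, followed by Rpl10l, Dpep3, Rpl36-ps2, Pabpc6, Piwil2, H1fnt and D1Pas1, down to 93.8% ± 5.51. Rpl36-ps2 is a ribosomal protein pseudogene, Piwil2 a protein of the piRNA pathway and H1fnt a linker histone of sperm. In amphetamine mice these 8 islands were between 88.7% and 100%.

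Within the same set of islands, the 8 largest control SDs had different compositions; islands outside it, with fewer reads or mice or with Gm or Rik names, reached larger SDs. At Cbln2, a synaptic organiser, a single saline mouse was at 100% and the mean of the other 5 was 0.455%, and the lowest coverage among saline mice was 2 reads. At Hoxc12, a homeobox gene, the highest mouse was again at 100% and the others averaged 4.06%, with a lowest coverage of 7 reads. At the imprinted pair Peg10/Sgce the control mice ranged from 16.7% to 100%, and at Nnat, a further imprinted gene, from 0.962% to 96.7%, with lowest coverages of 41 and 10 reads. Dcdc2c, Ak3l2-ps, Mgarp and Ppp1r2-ps6 completed these 8, with SDs between 26.7 and 34.2 points.

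The highest coverage was 130722 reads at the 3178 bp island of Gm26917/Yam1, and the neighbouring AY036118 island had 36635. They were at 16% ± 2.52 and 10.6% ± 3.21 in controls. Sfi1, a centrosome protein gene, followed with 14942 reads and 88.6% ± 1.61. Such coverages are far from the median of 304 reads, and reads from near-identical copies could be counted there, so the values are uncertain. The other 5 of the 8 highest coverages among islands with a symbol other than Gm or Rik names were Fcgr3/Mir6546, Eif3j2, Inhbb, Mn1 and Crnde/Irx5, with 2265 to 4113 reads and levels from 1.96% to 6.51%.

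Most promoter islands differed little between amphetamine-exposed and control mice. The median difference, amphetamine minus saline, was 0 percentage points over 10639 islands, the central 90% ran from -2.87 to 3.11 points, and 8682 (81.6%) differed by less than 2 points. Levels were higher in 5081 islands, lower in 5305 and equal in 253. Over all 14840 islands with a value in both groups the median was 0 too, with 7217 higher and 7250 lower. Median coverage was 379 reads after amphetamine and 304 in controls, and the median SD was 1.54 and 1.73 points; the part of depth in the comparison was not tested.

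By limma's moderated test, refitted from the deposited means and SDs, 2 of 10635 tested promoter islands had an adjusted p under 0.05, beside 2 of all 14829 islands tested (0.0135%). At an unadjusted p under 0.05 there were 434 (4.08%), beside 4.10% over all islands. Of these 261 were higher after amphetamine, or 2.45% beside 2.51%, and 173 lower, or 1.63% beside 1.59%. In 35 of the 9982 islands with reads in every mouse the lowest amphetamine mouse was above the highest control, 0.351% beside 0.325% over all islands. In 13 the order was turned, 0.130% beside 0.118%. These shares lay close together, but 10635 of the 14829 islands tested are promoter islands themselves. Of the autosomal islands without a promoter none of 3781 had an adjusted p under 0.05, and 4.42% had an unadjusted p under 0.05. Their groups did not overlap in 0.248% with amphetamine higher and in 0.0931% with it lower. These differences were not tested. Of the 48 promoter islands without overlap 45 had a control level under 5%, and the median size of their difference was 2.44 points.

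**Figure D4:**
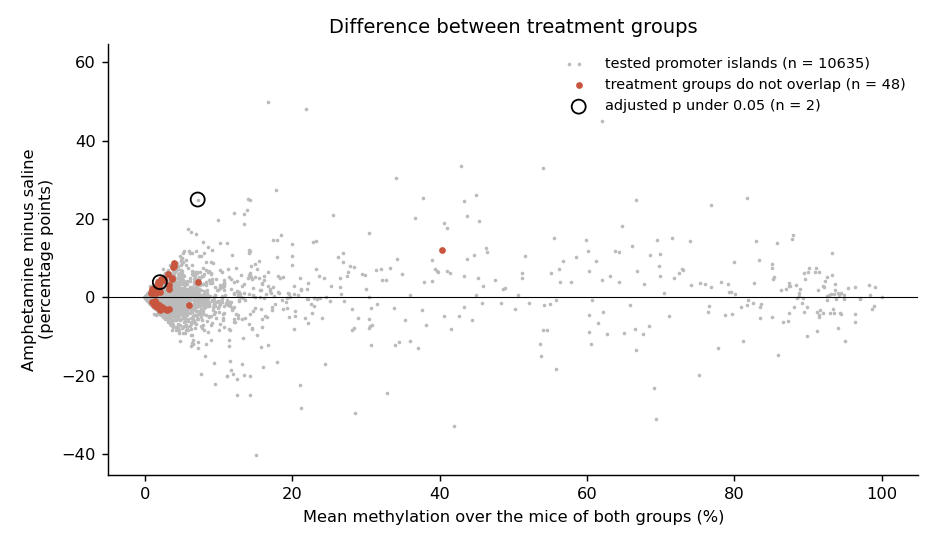
Amphetamine minus saline (percentage points, y axis) against mean methylation over the mice of both groups (%, x axis) for each tested promoter island. Islands whose groups do not overlap lie mostly at the left within a few points of 0, the circled islands are the 2 with an adjusted p under 0.05, and the widest spread is seen at intermediate levels.

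The median difference was larger at intermediate levels, where differences also spread widely. Binned by the mean over both groups, so that neither group chose the bin, the 86 islands from 25 to 50% had a median difference of 4.29 points and 55 were higher after amphetamine. The 67 islands from 50 to 75% had a median of 4.52 points with 41 higher. The central 90% of differences ran from -12.1 to 23.7 points in the lower of these bins and from -14.4 to 23.0 in the upper. At an unadjusted p under 0.05 these bins held 9 higher islands and 1 lower, or 6.54% of 153. The autosomal islands without a promoter had medians of 0.895 and 0.978 points in the same bins, where 18 higher and 8 lower islands, or 8.97% of 290, were at an unadjusted p under 0.05. The 9734 islands up to 5% had medians of 0 and -0.17 points in their 2 bins. No test was made over islands, which share the same mice.

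Slc18a2, which encodes the vesicular monoamine transporter VMAT2 that loads serotonin, dopamine and noradrenaline into vesicles, was 1 of the 2 called islands and had reads in every mouse. Its island (chr19:59260852-59261467, holding the gene's start) also overlapped the promoter of Gm29261 on the other strand. The island was at 4.13% ± 0.646 (SD, n = 5) after amphetamine, with mice from 3.16% to 4.63%. In controls it was at 0.224% ± 0.369 (n = 6), with mice from 0 to 0.870%. The groups did not overlap, and coverage was 322 and 260 reads, with a lowest mouse of 185 and 58. The difference was 3.91 ± 0.359 points (SE; adjusted p = 0.00603 by limma). Over the other ways of fitting the adjusted p ran from 0.0159 to 0.137, and it was above 0.05 when the variance prior followed the mean (0.137), with islands read in all mice (0.0568) and with islands of SD above 0 (0.136). With the highest amphetamine and the lowest saline mouse taken out the difference was 3.74 points, and over the whole promoter it was 4.07 points, from largely shared reads. Females and males were at 2.06% ± 2.01 and 1.93% ± 2.43. In the lists of serotonin genes it was the island that passed the test; the others were between -2.06 and 5.27 points.

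The other called island lay at the shared promoters of Polr1a, the largest subunit of RNA polymerase I, and of Ptcd3, a mitochondrial ribosome protein (chr6:71909036-71909346). It was listed at 25% in both of the 2 amphetamine mice with reads and at 0 in 5 control mice, with SDs of 0. Its mean coverage was 8.60 and 37.7 reads, and adjusted p was 1.39e-05 by limma. It was tested in no fit that required 10 reads, reads in all mice or an SD above 0. With the prior following the mean it was 0.0197, and on the logit scale 0.00217.

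None of the other named islands of smallest p that were higher after amphetamine passed the adjustment. Aplp2, an amyloid precursor-like protein, was at 3.93% ± 1.31 against 0.228% ± 0.557 (adjusted p = 0.408 by limma). Zbtb4, a zinc finger protein that binds methylated CpG, was at 5.23% ± 1.63 against 0.439% ± 1.07 (adjusted p = 0.448). Both sets of mice were apart, and in each island 5 of the 6 controls were at 0. Atad1, Mlxip, Foxi2 and Tiprl had adjusted p from 0.890 to 0.912 and differences from 2.11 to 5.96 points, without overlap of groups. Mlxip encodes the glucose-responsive factor MondoA and Tiprl a regulator of protein phosphatases.

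Dazl showed the largest difference of the 48 islands whose groups did not overlap. Its island (chr17:50292685-50293791) was at 46.9% ± 2.78 after amphetamine, with mice from 42.7% to 49.6%. Controls were at 34.8% ± 4.34, from 27.7% to 38.7%. Every amphetamine mouse was above every control, at a coverage of 988 and 659 reads. The difference was 12.1 ± 2.17 points (SE; adjusted p = 0.596 by limma), so it did not pass the adjustment over all islands. Without the extreme mice, whose removal cannot undo a separation of groups, it was 10.0 points. Over the whole promoter, which overlaps the island, it was 9.0 points.

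**Figure D5:**
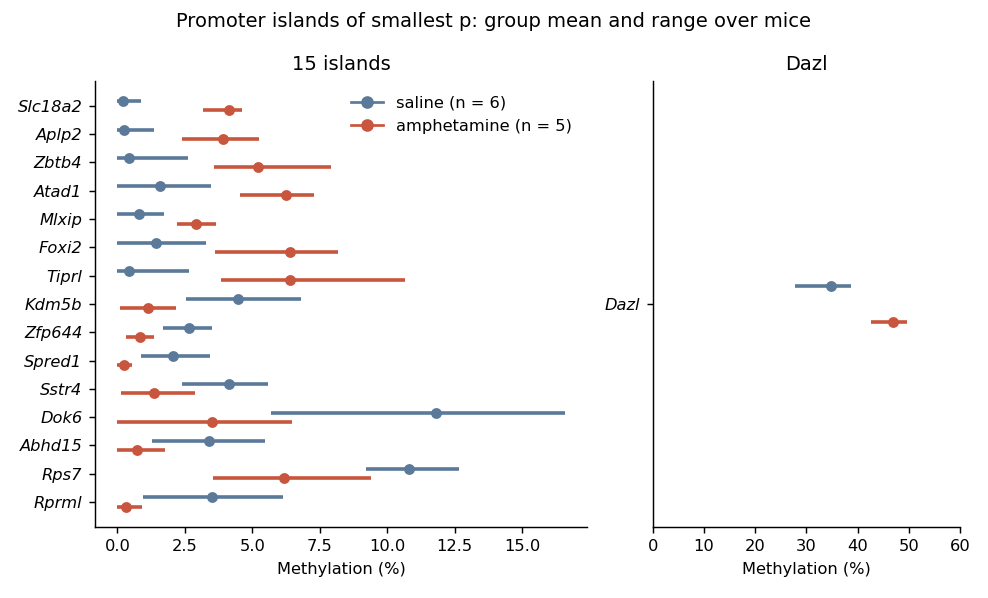
Methylation (%, x axis) of the 16 promoter islands of smallest p by the naming rule, 8 higher and 8 lower after amphetamine; points are group means and lines run from the lowest to the highest mouse. Dazl has an axis of its own, and groups overlap at Sstr4, Dok6, Abhd15 and Rps7.

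Among the named islands that were lower after amphetamine, Kdm5b, a histone demethylase, had the smallest p, at 1.13% ± 0.771 with mice from 0.0887% to 2.15%, against 4.46% ± 1.38 with mice from 2.54% to 6.80%. Its groups did not overlap, coverage was 686 and 421 reads, and the difference was -3.33 ± 0.695 points (adjusted p = 0.923 by limma). Over the whole Kdm5b promoter the difference had the other sign, at 1.16 points. Zfp644 and Spred1, an inhibitor of Ras signalling, differed by -1.83 and -1.82 points without overlap, as did Rprml by -3.20. Dok6, an adaptor of receptor kinases, had the widest difference at -8.32 points, from 11.8% ± 4.28 to 3.49% ± 2.33, with overlapping mice. Rps7, a ribosomal protein gene, went from 10.8% ± 1.19 to 6.17% ± 2.83. Sstr4, a somatostatin receptor, and Abhd15 differed by -2.77 and -2.68 points, and all of these lower islands had an adjusted p of 0.923.

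By list, the counts at an unadjusted p under 0.05 by limma were small, and over all islands the share was 4.10%. The lists held 2 of 12 germline, 2 of 24 pancreas factor, 1 of 10 serotonin and 1 of 9 methylation gene islands. These counts were not tested against that share. Of the 12 germline islands 9 were higher and 3 lower, with a median difference of 4.96 points. Those at an unadjusted p under 0.05 were Dazl and Sycp1, which was at 92.2% ± 2.08 against 87.5% ± 4.25. Ddx4 had the widest gap of the list at 14.4 points, 81.8% ± 8.10 against 67.4% ± 14.9, and its mice overlapped. For comparison, 100 of the 175 promoter islands with a mean above 50% were higher. The 15 imprinted islands included 6 higher and 9 lower, with a median of -0.53 points and none at an unadjusted p under 0.05. Airn, the antisense RNA of the Igf2r locus, went from 53.3% ± 19 to 67.9% ± 19.6, while Ndn, which had reads in 3 amphetamine and 5 control mice, went from 21.3% ± 26.4 to 8.99% ± 13.5.

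The 24 pancreas transcription factors were balanced, with 12 higher, 12 lower and a median of -0.01 points. Hes1, a Notch target, and Rfx3, a ciliary and islet factor, were at an unadjusted p under 0.05, with differences of 1.51 and 1.98 points. That is 2 of 24 islands, beside 4.10% over all islands. The serotonin islands were 6 higher and 4 lower, with a median of 1.20 points. The methylation enzymes and readers were 5 higher and 4 lower, and Tet2, which oxidises methylcytosine, was at 3.80% ± 1.61 against 1.86% ± 0.628, at an unadjusted p under 0.05. The housekeeping islands were 3 higher and 13 lower with a median of -0.61 points, and the insulin secretion islands 4 higher and 3 lower with 0.15. Neither of these last lists held an island at an unadjusted p under 0.05, and the adjusted p was under 0.05 for 1 listed island, Slc18a2.

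Female and male mice were compared over the same animals. The adjusted p was under 0.05 for 11 of 10629 promoter islands, beside 161 of 14820 islands in all (1.09%), of which 145 were on X or Y. Over autosomal islands the share was 0.111% and over promoter islands 0.103%. The adjustment ran over X and Y islands too, and the calls there ease the threshold for autosomal islands. An adjustment over autosomes alone was not made, so the 5% rate does not hold for the 11 taken by themselves. In 8 of the 11 the level was lower in females, and this split changed with the way of fitting. The widest gap was at Ppp1r2-ps2, a phosphatase inhibitor pseudogene, with 13.7% ± 8.12 in 6 females and 51.0% ± 16.4 in 5 males (adjusted p = 0.0417 by limma). At Rab10os, an antisense transcript, it was 4.42% ± 3.65 against 30.1% ± 11.9 (adjusted p = 0.0362). Males did not overlap females at either. The other 9 differed by 1.92 to 5.01 points at levels under 6%; Wnt4, a signalling protein of sexual development, was at 1.14% ± 0.592 against 3.36% ± 0.737, and Wdr5, a subunit of histone methyltransferase complexes, at 0.413% ± 1.01 against 4.83% ± 1.01. Mturn, Pcmtd1 and Necab2 were higher in females. They were not called with at least 50 reads, with reads in all mice or with SD above 0. None of the 11 reached an unadjusted p under 0.05 by limma for treatment.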

How the data were processed

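Genomic DNA of P0 pancreas from 11 mice was cut with MspI and TaqI and sequenced by RRBS. According to the study's methods and the submitters' processing notes, reads were aligned to mm10 with Bismark and summarised per region with RnBeads; the version of Bismark itself is not given in the sources used here. In the deposited tables the methylation level is a fraction, averaged by the authors over the mice of a group with reads. Coverage is a signal, the authors' mean coverage of the region, called reads here and not scaled for depth. SD, lowest and highest values and mice without reads are deposited beside them. Fractions were turned into percent. The authors deposited 8 tables, of which 4 were used (islands in both comparisons, promoters, genes). Columns with the authors' differences, quotients, p-values, adjusted p-values and ranks were not used, and values per mouse were not analysed here.

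The limma moderated test (limma 3.58.1, R 4.3.3) was refitted on percent from group means, SDs and n over all islands with at least 2 mice with reads in each group, without covariates, with Benjamini-Hochberg adjustment over all of them. The code was tested on simulated data. Sequence came from GRCm38 and starts from GENCODE; both are the mm10 build. Of 24391 promoters 23985 had a strand there. Python 3.11.15, pandas 2.3.3 and matplotlib 3.10.9 were used. Named islands were the 8 of smallest p in each direction, with reads in all mice, coverage of at least 50 and SD above 0 in both groups and a symbol other than Gm or Rik names; the 8 of highest control level, SD and coverage; and the islands of 7 gene lists. Called islands were named as well, and the Dazl sequence was added after its values were seen. Zrsr1, next in line for a sequence, had no stretch of 50 bases outside untranslated regions. Members and lists were chosen with earlier results of these data known. Alternatives were another variance prior, a logit scale (offset 0.01), coverage minima, complete mice, SD above 0, other thresholds and other overlaps. The precision of a level rests on the coverage printed beside it, which covers counting error only.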

Additional observations from a re-analysis of the deposited data

How the results depend on the processing

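Under the alternatives the number of promoter islands called for treatment (2) was 1 with the variance prior following the mean, 1 with coverage of at least 10 and 1 with at least 50. It was 12 on the logit scale, of which 8 had an SD of 0 in a group, and 434 at an unadjusted p under 0.05. By limma it was 0 with reads in all mice, where 383 had an unadjusted p under 0.05, and 0 with SD above 0 in both groups, where 324 did. It was 0 by the study's thresholds, an added fold above 1.5 and difference above 25 points, with 434 at an unadjusted p under 0.05. The study set these thresholds for CpGs summarised in bins, not for islands, and Polr1a/Ptcd3 lay exactly at 25 points. An adjusted p under 0.1 or at least 50% of the island inside a promoter left the number called for treatment at 2. The number called for sex (11) was 6 with the prior following the mean, 68 on the logit scale, 5 with SD above 0, 20 at an adjusted p under 0.1, 516 at an unadjusted p under 0.05 and 2 by the study's thresholds; coverage minima, complete mice and the overlap gave 8 to 11. Of the islands called for sex on the logit scale 42 of 68 were higher in females. With at least 50 reads, reads in all mice or SD above 0 none of those called was. The median difference for treatment stayed between -0.0287 and 0 points, the median control level between 1.85% and 1.89%, and the islands without overlap between 46 and 48. The CpG ratio, whose alternatives were chosen after seeing the data, stayed between 0.891 and 0.894. Of the 16 islands of smallest p all kept their sign without the extreme mice and 15 over the whole promoter, Kdm5b being the exception. Groups overlapped only at Sstr4, Dok6, Abhd15 and Rps7, and at the others removing mice cannot change the sign. The promoter overlaps its island, and the 16 were picked by p from the same values, so these counts are no test of stability. Over all 139 named islands 68 changed sign without the extreme mice, which by construction shrinks a difference. The cause of the other changes was not tested. Refits without each mouse were not run, since values per mouse were not analysed here. No paired analysis was possible because the labels give no number that ties pups of one group to pups of the other, and values per mouse were not analysed here. Low coverage limits islands under 50 reads most.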
